A study of Homo sapiens and Mus musculus with 12 samples.

Results

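RNA-seq of splenic natural killer (NK) cells listed 22021 mouse genes, and 9 of them were followed here: Tcp11x2, Ssxb10, Ttll2, Dnah5, Olfr1342, Scn2a1, Ch25h, Cyp26a1 and Phldb2. The 9 genes were chosen by their counts in these libraries, as genes absent or nearly absent in WT NK cells and counted in KO NK cells. The difference between the genotypes is therefore a property of the choice, and it is described without a test. WT mice were Ehmt2 flox/flox. KO mice were Ehmt2 flox/flox and in addition carried Ncr1 iCre, so that Cre recombinase is made in cells expressing Ncr1, which encodes the receptor NKp46. All mice were on the C57BL/6J background, were matched for age and sex and were 8 to 12 weeks old, and there were 3 libraries of each genotype. The genotype label of the KO samples reads Ezh2-KO, whereas their titles name EHMT2, and the titles were followed. As a readout that the choice did not use, the human counterparts were examined in NK92MI, an NK cell line, cultured with the EHMT2 inhibitor BIX-01294 or with its solvent DMSO, again with 3 libraries each. The labels give neither dose nor time of that treatment, and other NK92MI assays of the study used 0.25 uM for 5 days.

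Ehmt2, also called G9a, is an enzyme that places mono- and dimethyl groups on lysine 9 of histone H3. Dimethylated lysine 9 (H3K9me2) marks silent chromatin, and G9a is known for keeping germ-line genes and genes of other cell lineages silent in somatic cells. NK cells are lymphocytes that kill infected and malignant cells, and none of the 9 genes is a classical NK cell gene. By what their products are known to do, they fall into genes of testis and cilia (Tcp11x2, Ssxb10, Ttll2, Dnah5), a sensory and a neuronal gene (Olfr1342, Scn2a1), enzymes that act on lipid signals (Ch25h, Cyp26a1) and a cytoskeletal scaffold (Phldb2). H3K9me2 itself was not analysed here.

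The sequence of the SSX genes is shown because it decides how far reads of Ssxb10 can be told apart from those of its relatives. Ssxb10 (chrX:8327424-8336237, plus strand, GRCm38) was counted in KO NK cells, its neighbour Ssxb9 (chrX:8366978-8375390, plus strand) was counted there too at a lower level, and Ssxb3 (chrX:8583404-8591816, minus strand), the gene whose coding sequence is nearest to that of Ssxb10, was at 0 in every library. Each line gives 180 bases of the GENCODE M21 coding sequence, bases 229 to 408 of the last 510 coding bases, with capitals at the 12 positions where the sequences are not all alike.
Ssxb10: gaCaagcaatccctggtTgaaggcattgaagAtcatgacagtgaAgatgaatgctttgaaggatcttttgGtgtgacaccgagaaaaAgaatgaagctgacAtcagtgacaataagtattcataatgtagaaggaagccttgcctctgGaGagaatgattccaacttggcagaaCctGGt
Ssxb9: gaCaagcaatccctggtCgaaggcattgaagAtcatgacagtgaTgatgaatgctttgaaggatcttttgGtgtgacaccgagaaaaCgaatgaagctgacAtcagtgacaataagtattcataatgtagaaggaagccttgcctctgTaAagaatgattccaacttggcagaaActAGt
Ssxb3: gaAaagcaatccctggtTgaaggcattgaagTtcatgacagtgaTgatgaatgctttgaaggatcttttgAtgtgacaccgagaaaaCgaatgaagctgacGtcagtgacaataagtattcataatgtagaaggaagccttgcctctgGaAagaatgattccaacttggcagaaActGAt
Over all 510 bases, Ssxb9 differed from Ssxb10 at 14 positions and Ssxb3 at 13. Of the stretches of 100 bases in the Ssxb10 transcript, 16.8% also occurred in another gene.

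The files held 25891680 to 37438868 counts per mouse library, with the smallest total in WT replicate 2, and 16579469 to 17165446 per human library. In the mouse libraries 84.1% to 87.6% of all counts from 1 to 50 were even numbers, against 45.2% to 46.8% in the human libraries. A count of 2 in a mouse library may thus stand for 1 read pair, and a mouse gene at 0 was given a floor of 6 counts over the 3 WT libraries, equal to 3 such pairs. Ehmt2, the targeted gene, was counted at 10182, 7332 and 10628 in WT NK cells and at 6277, 5297 and 4994 in KO NK cells. It had −0.91 ± 0.10 (SE) as its log2 fold change in KO, with an adjusted p of 0.0162 by edgeR's quasi-likelihood test, which rose to 0.0986, 0.121 and 0.0587 without KO replicate 2, KO replicate 3 and WT replicate 3. These are RNA counts over the whole gene and do not show which exons remained. By Western blot of splenic NK cells, the study reports complete deletion of Ehmt2 and reduced H3K9me2 in KO. The 12 NK cell markers were counted in every library, and their summed level was 5990 to 9497 CPM (TMM-normalized counts, scaled to library size) in WT and 10691 to 12352 CPM in KO NK cells. Of these 12, edgeR called 6 higher, where 2.82% of all tested genes were called higher and 6.69% lower (a call needs an adjusted p below 0.05 and a log2 difference above 0.5 in size). The 10 macrophage and monocyte markers summed to 2871 to 6856 CPM in WT and 1724 to 2824 CPM in KO NK cells, with 5 called lower. The 6 B cell markers summed to 463 to 1310 and 84.3 to 425 CPM, and with all libraries neither edgeR's main fit nor DESeq2 called any of them. At an unadjusted p under 0.05 in that edgeR fit, 5 were lower, beside 2639 of all 13189 genes tested. In edgeR refits, 6 B cell markers were called lower without KO replicate 1 and 3 without WT replicate 2. With the replicate number as a block, 5 were called lower. Neutrophil markers (8 genes) summed to 68.9 to 748 CPM in WT and 1.89 to 80.1 CPM in KO, T cell markers (8 genes) to 181 to 274 and 141 to 245 CPM, dendritic cell markers (6 genes) to 999 to 1331 and 1054 to 1343 CPM, and stromal and endothelial markers (10 genes) to 226 to 255 and 186 to 193 CPM. The summed ranges of the genotypes overlapped for neutrophil, T cell and dendritic cell markers and not for the other lists given here. Called were the T cell markers Cd3g and Cd28 as higher, the dendritic cell markers Siglech and Clec9a as lower, 2 neutrophil markers as lower and 1 stromal or endothelial marker as lower. The dendritic cell sum was mostly Itgax (23618, 26663 and 25344 counts in WT, 30523, 43403 and 40701 in KO), and the other 5 of its 6 markers had lower means in KO NK cells. Without KO replicate 2, KO replicate 3, WT replicate 1 or WT replicate 3, no marker of the NK cell, macrophage, T cell and dendritic cell lists was called. Over all genes, edgeR called 0 without KO replicate 2 or KO replicate 3, where 3208 and 3287 genes had an unadjusted p under 0.05 and DESeq2 was not run. In such bulk samples fewer cells of a type and less RNA per cell cannot be told apart. Of the sex-linked genes, 4 on the Y chromosome were counted in all 6 libraries. Among these, edgeR called Kdm5d higher, with 1455, 1139 and 1526 counts in WT and 2012, 2274 and 2397 in KO. Its log2 fold change was 0.55, with an adjusted p of 0.0297 by edgeR. That call was lost without KO replicate 2, KO replicate 3, WT replicate 1 or WT replicate 3.

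Together, the 9 genes held 34, 18 and 8 counts in WT replicates 1, 2 and 3 and 552, 609 and 616 counts in KO replicates 1, 2 and 3. Phldb2 accounted for most of these counts. Without it, the other 8 genes held 16 counts over all WT libraries and 734 over all KO libraries. Of the 27 values of the 9 genes in WT libraries 16 were 0, while all 9 genes were counted in every KO library. The counts of the 9 genes by library show this pattern gene by gene. Their summed level was 0.610 ± 0.359 CPM in WT and 16.1 ± 0.975 CPM in KO NK cells (SD, n = 3 each), a ratio of 26.4, and the ratio of the other 8 was 39.7. The summed NK cell markers, by comparison, were 1.63 times as high in KO as in WT NK cells. Set against 1000 CPM of NK cell markers in the same library, the 9 genes made up 0.0872 ± 0.0602 CPM in WT and 1.37 ± 0.0398 CPM in KO NK cells (SD, n = 3 each). All of this describes the choice of the genes and carries no test.

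**Figure D1:**
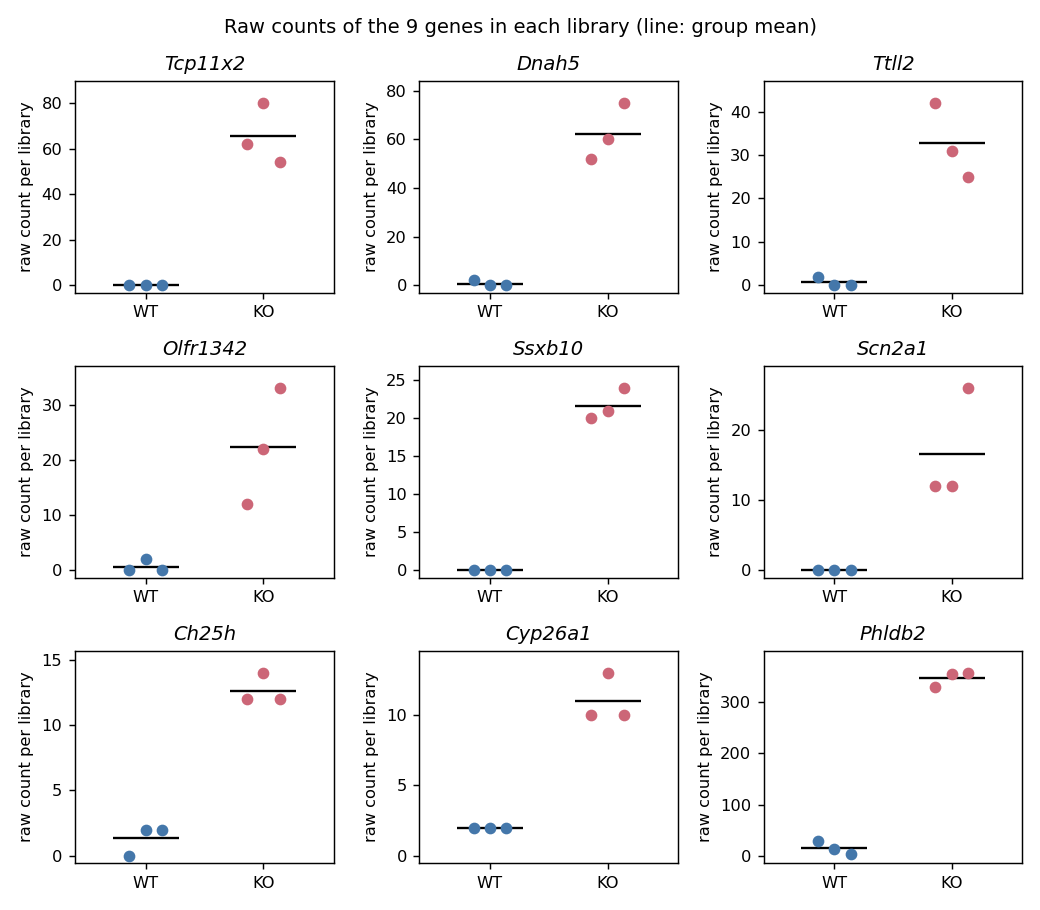
Raw counts of each of the 9 genes (vertical axes, counts per library, a scale of its own for each gene) in the 3 WT and 3 KO libraries, with points for libraries and a line for the group mean. Every KO library lies above every WT library for all 9 genes, and Phldb2 has by far the most counts, 330 to 357 in KO.

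Among the genes of testis and cilia, Tcp11x2 had the clearest on and off pattern. Tcp11x2 (chrX:135654698-135693790, minus strand) is an X-linked relative of the testis protein Tcp11. It was at 0 in all 3 WT libraries and at 62, 80 and 54 counts in KO replicates 1, 2 and 3. The KO level of 1.77 ± 0.346 CPM (SD, n = 3) was 29.7 times the floor of 6 counts over the WT group. This and the other ratios to the floor leave out the counting error and spread of the KO counts.

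Ssxb10 belongs to the SSX family, X-linked genes that are normally restricted to the testis and that act as transcriptional repressors. It was at 0 in all WT libraries and at 20, 21 and 24 counts in KO replicates 1, 2 and 3, the narrowest range among the genes with no WT count. Its KO level was 0.589 ± 0.0606 CPM (SD, n = 3), 9.85 times the same floor for WT. The 3 KO values lay close together, with a coefficient of variation of 10.3%.

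Ttll2 (chr17:7350885-7352696, minus strand) is a tubulin tyrosine ligase-like enzyme, a family that adds amino acids such as glutamate to tubulin. Its counts were 2, 0 and 0 in WT and 42, 31 and 25 in KO replicates 1, 2 and 3, and the groups did not overlap. The ratio of KO to WT read pairs was 45.5, with an exact 95% interval of 7.80 to 1832 that covers counting error only. Here and below, such intervals pool the libraries of a group. They rest on the counts used for the choice, so they are no test. Ttll2 is the least certain of the 9 genes in its identity. Of the 100-base stretches of its transcript 57.7% occurred also in other annotated genes, among them AC166360.2, which was 99.1% identical over 1621 bases, and Ttll2 overlaps Gm49630 on the same strand.

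Dnah5 (chr15:28203752-28472052, plus strand) encodes a heavy chain of the outer dynein arm, the motor of motile cilia. It was counted at 2, 0 and 0 in WT and at 52, 60 and 75 in KO replicates 1, 2 and 3. The KO level was 1.70 ± 0.328 CPM (SD, n = 3), and the ratio of read pairs was 85.5 (exact 95% interval 15.0 to 3412, counting error only). No other annotated gene overlapped it, and none of its 100-base stretches occurred elsewhere among the transcripts.

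Olfr1342 (chr4:118687486-118692756, minus strand) encodes an odorant receptor, a class of receptors used by sensory neurons of the nose. Its counts were 0, 2 and 0 in WT and 12, 22 and 33 in KO replicates 1, 2 and 3. KO replicate 3 was the highest, and the coefficient of variation of the KO level, 47.6%, was among the widest of the 9 genes. The ratio of read pairs was 30.9 (exact 95% interval 5.19 to 1257).

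Scn2a1 (chr2:65620771-65767447, plus strand, Scn2a in the annotation) encodes the pore of a voltage-gated sodium channel of neurons. It was at 0 in all WT libraries and at 12, 12 and 26 counts in KO replicates 1, 2 and 3, so that replicate 3 stood above the other two. The KO level of 0.454 ± 0.224 CPM (SD, n = 3) was 7.58 times the floor of 6 counts over WT. Of the 6 neuron markers, Snap25 was at 0 in all 6 libraries, and the summed level of the list was 0.776 to 2.83 CPM in WT and 1.64 to 2.21 CPM in KO NK cells, overlapping ranges. Of the 2 neuron markers with enough counts to be tested, Rbfox3 was called higher by edgeR (14, 10 and 15 counts in WT, 45, 38 and 34 in KO, adjusted p = 0.0412). That call was lost without any library other than WT replicate 2.

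Ch25h (chr19:34473778-34475164, minus strand) makes 25-hydroxycholesterol, an oxysterol that restrains sterol synthesis and viral entry. Its counts were 0, 2 and 2 in WT and 12, 14 and 12 in KO replicates 1, 2 and 3. The KO values were the least variable of the 8 lower genes (coefficient of variation 8.31%), but the ratio of read pairs, 8.64, had an exact 95% interval of 2.08 to 76.5. An annotated noncoding gene, Gm26902, overlaps part of Ch25h on the other strand, and 4.66% of the 100-base stretches of Ch25h occurred in it. The strand setting of the counting was not stated, so reads of that overlap cannot be told apart.

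Cyp26a1 (chr19:37697798-37701536, plus strand) degrades retinoic acid and is itself a textbook target of the retinoic acid receptors. It was the weakest of the 9 genes, with 2 counts in each WT library and 10, 13 and 10 counts in KO replicates 1, 2 and 3. The ratio of read pairs was 5.15 (exact 95% interval 1.49 to 27.4, counting error only). At this depth the WT counts may be no more than 1 read pair in each library.

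Phldb2 (chr16:45746243-45953598, minus strand) encodes LL5beta, a scaffold that anchors microtubule ends at the cell cortex. It was counted at 28, 12 and 4 in WT and at 330, 356 and 357 in KO replicates 1, 2 and 3, and it was the only one of the 9 genes with more than 2 counts in any WT library. The WT level was 0.443 ± 0.324 CPM and the KO level 9.45 ± 0.424 CPM (SD, n = 3 each), a ratio of read pairs of 21.6 (exact 95% interval 14.1 to 34.7, counting error only). Without WT replicate 1, which held most of the WT counts, the ratio was 37.4, and without WT replicate 3 it was 14.9. The 2 noncoding genes antisense to it, Gm15640 and Gm15638, were not among the listed genes.

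The 9 genes lay on 7 chromosomes, with Tcp11x2 and Ssxb10 on X and Ch25h and Cyp26a1 on chromosome 19. In KO NK cells they remained genes of low or moderate rank. The mean KO level of Phldb2 was above that of 58.8% of all listed genes, and those of the other 8 were above 41.5% (Cyp26a1) to 48.9% (Tcp11x2), where 5556 of the 22021 listed genes had no count in any library. The highest KO count fell in replicate 3 for 5 genes, in replicate 2 for 3 genes and in replicate 1 for Ttll2. That all 9 genes were counted in every KO library follows from the choice.

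Levels were compared between genes only per length of exons. On the scale of CPM per kb, Phldb2 was highest in KO NK cells at 1.25 ± 0.0560, followed by Tcp11x2 at 0.999 ± 0.195 (SD, n = 3 each). The ranges of these neighbours in the order overlapped. Ssxb10 came next at 0.670 ± 0.0689 and Ttll2 at 0.540 ± 0.142 CPM per kb, again with overlapping ranges. A gap without overlap separated Ttll2 from Ch25h (0.248 ± 0.0206), and Ch25h, Olfr1342 (0.186 ± 0.0885) and Cyp26a1 (0.151 ± 0.0225) overlapped each with the next. Dnah5 at 0.108 ± 0.0210 and Scn2a1 at 0.0357 ± 0.0176 CPM per kb were lowest and overlapped neither each other nor the gene before. In raw counts Dnah5 came directly after Tcp11x2 among the 8 lower genes, but its exons add up to 15637 bases, against 1776 for Tcp11x2.

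**Figure D2:**
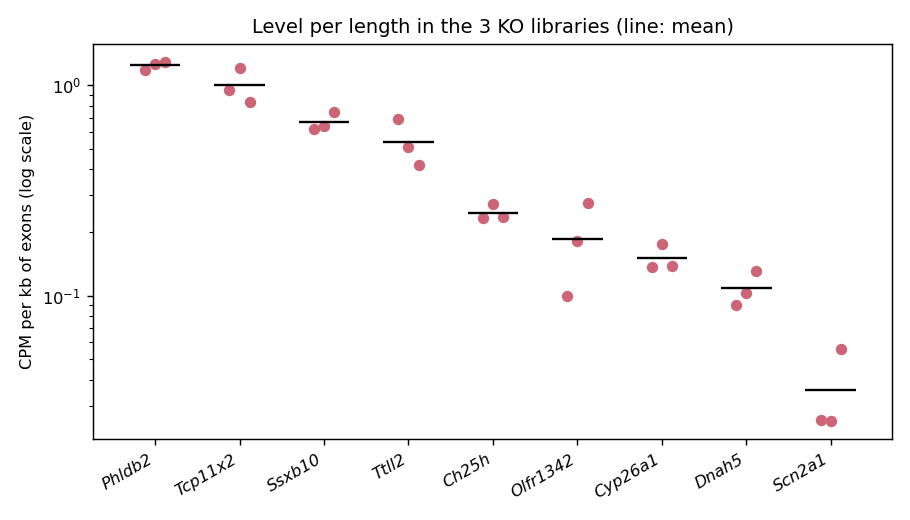
Level per length of the 9 genes in the 3 KO libraries, ordered by mean (vertical axis, CPM per kb of exons on a log scale), with points for libraries and a line for the mean. The means run from 1.25 for Phldb2 to 0.0357 for Scn2a1.

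To place the 9 genes among all others, every listed gene was put through a stated count rule: at most 10 counts summed over WT and at least 10 counts in each KO library. The rule took 17 of 22021 genes (0.0772%), and 8 of these were among the 9 genes followed here. Phldb2 fell outside through its 44 WT counts. The mirror rule, at most 10 counts over KO and at least 10 in each WT library, took 24 genes (0.109%). Since the 9 genes were chosen on the same counts, nothing is read from their share in the first group.

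**Figure D3:**
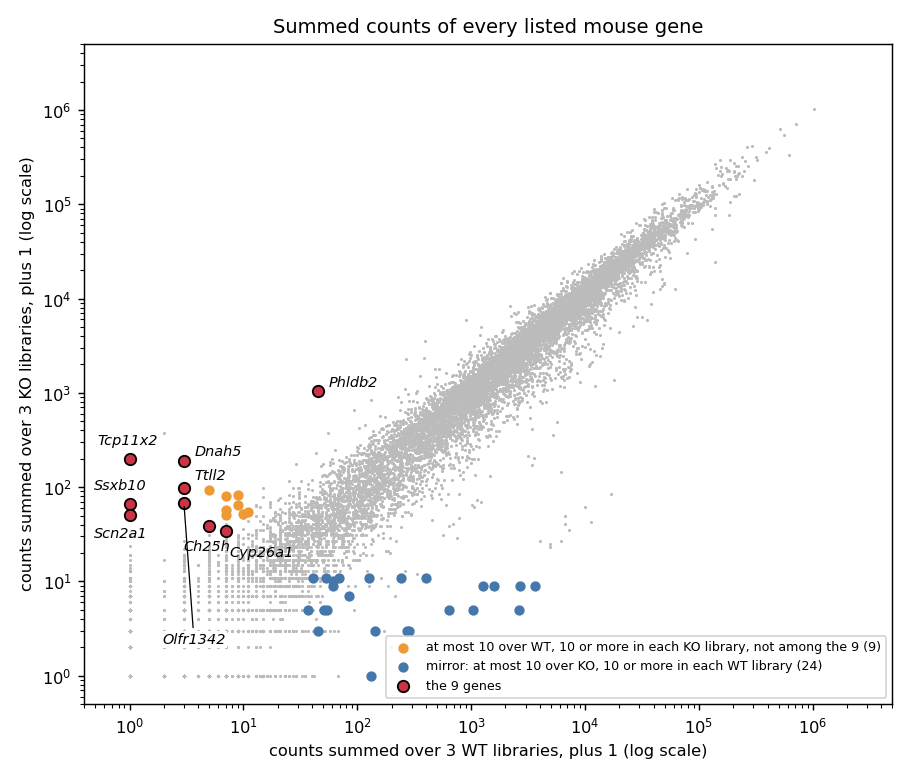
Summed counts of every listed mouse gene over the 3 WT libraries (horizontal axis) and the 3 KO libraries (vertical axis), each plus 1 on a log scale, with the 9 genes in red, the other genes of the count rule in orange and those of its mirror in blue. The red and orange points stand at the left edge above the main cloud at no more than 10 WT counts, apart from Phldb2, and the blue points reach 3623 WT counts.

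The other 9 genes taken by the rule were similar in level to the lower of the genes described. The 5 with the most KO counts were Gm9992 (30, 34 and 28 in KO replicates 1, 2 and 3, 4 in all WT libraries), Smco3 (32, 26 and 24, 8 in WT), Spink13 (21, 36 and 23, 6 in WT), 4933425L06Rik (20, 14 and 29, 8 in WT) and Plch1 (14, 28 and 14, 6 in WT). Spink13 encodes a serine protease inhibitor and Plch1 a phospholipase C. The remaining 4 were Car10, Ect2l, Cemip and Gm14124, with 39 to 54 KO counts. A gene just outside the rule, singled out after its values were seen, shows why each KO library had to pass. Capn11, a calpain protease of the testis, held 0, 372 and 4 counts in KO replicates 1, 2 and 3 and 1 count over WT, so that KO replicate 2 held 372 of its 376 KO counts.

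The genes of the mirror rule were led by Rnase1 with 404, 536 and 2683 counts in WT replicates 1, 2 and 3 and 0, 8 and 0 in KO, Pnliprp1 (266, 328 and 2074), Clps (351, 423 and 1850), Reg1 (154, 244 and 1202) and Dmbt1 (140, 167 and 953). Rnase1, Pnliprp1, Clps and Reg1 are secreted products of the exocrine pancreas. Each of these 5 genes was highest in WT replicate 3. The 9 genes cannot be compared with them in this respect, since counts in the KO libraries were part of their choice.

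The nearest listed genes on either side of each of the 9 were examined to see whether the increase extended along the chromosome. Of these 18 neighbours 10 had enough counts to be tested. Of the 10 neighbours 1 was called higher and 3 were called lower in KO NK cells, against 2.82% higher and 6.69% lower among all 13189 genes tested. Without KO replicate 2, KO replicate 3 or WT replicate 3 no neighbour was called, and without WT replicate 1 only 1, which was lower. These p-values measure the spread between the libraries, for which separate mice are not stated in the labels. Among the 8 neighbours not tested, 2 were counted in KO and at 0 in WT, namely Ssxb9 and, with 0, 2 and 1 KO counts, Csrnp3. How common such counts were over all listed genes is not given here.

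The clearest case of shared behaviour was Ssxb9. It starts 30.7 kb beyond the end of Ssxb10 on the same strand, and it was at 0 in all WT libraries and at 7, 11 and 11 counts in KO replicates 1, 2 and 3. Its KO level, 0.263 ± 0.0627 CPM (SD, n = 3), was 4.40 times the floor of 6 counts over WT. The sequences printed above differ between Ssxb9 and Ssxb10, and the 2 transcripts shared no stretch of 100 bases. Of the 100-base stretches of Ssxb9, 13.3% also occur in other genes of the family, so part of the reads may not be unique to it. On the other side of Ssxb10, at 47.2 kb, Slc38a5, a transporter of neutral amino acids, was lower in KO NK cells (148, 62 and 122 counts in WT and 26, 38 and 19 in KO, −2.10 ± 0.34 on the log2 scale, adjusted p = 0.0275 by edgeR). Here and below, ± after a log2 fold change gives its standard error.

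Near Tcp11x2, Tmsb15a was the only neighbour called higher. Tmsb15a, which encodes an actin-binding thymosin, lies 24.9 kb away and was already counted in WT at 63, 39 and 29, against 117, 116 and 104 in KO replicates 1, 2 and 3 (log2 fold change 1.20 ± 0.32, adjusted p = 0.0497 by edgeR). That call stood at the edge of the threshold and was lost with DESeq2's size factors (adjusted p = 0.0507 by edgeR) and without any library other than WT replicate 2 (adjusted p = 0.0752 to 0.161 by edgeR). On the other side, Prame, a germ-line gene, was at 0 in all 6 libraries.

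At the other loci no neighbour was called higher. Next to Phldb2, Abhd10 at 3.29 kb had a log2 fold change of 0.20 ± 0.14 and Plcxd2 at 5.67 kb one of 0.27 ± 0.15, and neither was called (adjusted p = 0.322 and 0.242 by edgeR). Next to Dnah5, Trio had a log2 fold change of 0.30 (adjusted p = 0.203 by edgeR) and Ctnnd2, which lies 1701 kb away, was lower (−1.05, adjusted p = 0.0162 by edgeR). Myof beyond Cyp26a1 was lower too (−1.45 ± 0.31, adjusted p = 0.0375 by edgeR). Cyp26c1, the retinoic acid hydroxylase 4.40 kb from Cyp26a1, held 3, 4 and 1 counts in WT and 2, 2 and 6 in KO. Beside Ch25h, neither Fas (−0.25, adjusted p = 0.507) nor Lipa (−0.61, adjusted p = 0.0919) was called by edgeR. Scn3a, the sodium channel next to Scn2a1, fell short of the threshold as well (−0.82 ± 0.27, adjusted p = 0.0797 by edgeR). Olfr62 and Olfr1341 beside Olfr1342 and Tcp10a beside Ttll2 had at most 2 counts over all libraries, and Fndc1, the other neighbour of Ttll2, had 4 to 14 counts per library in either genotype.

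**Figure D4:**
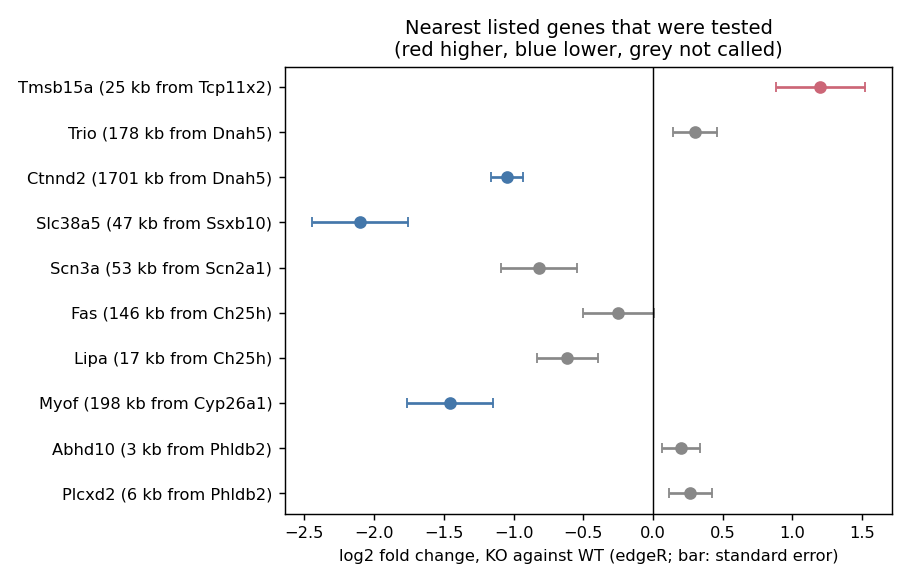
Log2 fold change of the 10 tested neighbours in KO against WT NK cells (horizontal axis, edgeR, bars for the standard error), each with its distance from the gene it neighbours. Tmsb15a at 1.20 is called higher, Ctnnd2, Slc38a5 and Myof are called lower, and the other 6 are not called.

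Families and pathways of the 9 genes were then tested without the 9 genes themselves, to see whether relatives moved with them. Over all lists, 89 other mouse genes were tested, of which 2 were called higher and 4 lower by edgeR, beside 2.82% and 6.69% of all genes. Leaving out KO replicate 2, KO replicate 3, WT replicate 1 or WT replicate 3 left none of these calls, whereas 6 were higher and 11 lower without WT replicate 2. For the counts at an unadjusted p under 0.05 below, 2080 of all 13189 genes were higher and 2639 lower by edgeR. DESeq2 called 570 of all 16465 genes higher and 1668 lower. In the SSX family, 9 further genes were listed, and none had enough counts for the edgeR test, while DESeq2 called Ssxb9 higher. Only Ssxb9 was counted in all KO libraries, Ssxb1 had 2 counts in KO replicate 3, and the other 7 were at 0 in all 6 libraries. No share over all listed genes is set beside this. The other X-linked germ-line families (Mage, Rhox, Xlr and others, 74 genes) had counts for 12 genes and 7 tested, of which edgeR called 0, with 2 higher and 1 lower at an unadjusted p under 0.05, while DESeq2 called 1 higher. Their median log2 fold change was −0.10, beside 0.01 over all genes. Of the spermatogenic cell markers, Prm1, Prm2, Tnp1 and Acrv1 were at 0 in every library, and the list summed to 0.295 to 0.647 CPM in WT and 0.135 to 0.245 CPM in KO NK cells.

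Among cilium genes, Foxj1, the master transcription factor of motile cilia, was higher in KO NK cells. It was counted at 22, 13 and 24 in WT and 54, 51 and 42 in KO replicates 1, 2 and 3 (log2 fold change 1.18 ± 0.30, adjusted p = 0.0473 by edgeR). The call was lost without any of the 6 libraries (adjusted p = 0.0582 to 0.161 by edgeR). By edgeR, Foxj1 was the only one called of 15 motile cilium genes tested, whose median log2 fold change was 0.26. At an unadjusted p under 0.05, 5 of them were higher and 1 lower, and DESeq2 called 1 higher and 1 lower. Of the other axonemal dynein heavy chains 6 were tested. Dnah2 was lower (345, 179 and 285 counts in WT and 156, 98 and 152 in KO, −1.11 ± 0.23, adjusted p = 0.0350 by edgeR), and Dnah11, another chain of the outer arm, stood at 1.04 without passing the test (adjusted p = 0.0719 by edgeR). None of the 9 other tubulin tyrosine ligase-like genes tested was called by edgeR or DESeq2, with 1 higher and 2 lower at an unadjusted p under 0.05. In the TCP11 family Tcp11l1 was lower (−0.92 ± 0.18, adjusted p = 0.0338 by edgeR), and Tcp11, the testis gene itself, had 45, 43 and 28 counts in WT and 34, 42 and 51 in KO.

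The 7 other sodium channel subunits tested all had negative log2 fold changes, from −2.17 for Scn4a to −0.36 for Scn3b, with a median of −0.63. None was called by edgeR, 3 were lower at an unadjusted p under 0.05, and DESeq2 called 1 lower. Scn2a1, at 0 in WT, was counted in KO only. Of the 1127 other olfactory receptor genes listed 49 had any count, and 3 were tested with 0 called by edgeR, 1 lower at an unadjusted p under 0.05, and 1 called higher by DESeq2. Olfr1258 (9, 12 and 8 counts in KO replicates 1, 2 and 3) and Olfr1259 (2, 8 and 3) were the only other olfactory receptors counted in all KO libraries and at 0 in WT, and they are named after their values were seen. The share of all listed genes with this pattern is not given here, so nothing is read from their number.

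Among 19 tested oxysterol and sterol genes, Mylip, which targets the low density lipoprotein receptor for degradation, was higher (161 ± 28.5 CPM in WT and 240 ± 7.57 CPM in KO, SD, n = 3 each, log2 fold change 0.57, adjusted p = 0.0405 by edgeR). Nr1h3, the oxysterol receptor LXR alpha, was lower, with 5790, 1036 and 3227 counts in WT and 1232, 757 and 1102 in KO (−1.75 ± 0.44, adjusted p = 0.0472 by edgeR). The WT order of Nr1h3 was that of the macrophage and monocyte markers, which summed to 6856, 2871 and 5173 CPM in WT replicates 1, 2 and 3; their part in the result was not tested. Gpr183, the receptor for an oxysterol made from 25-hydroxycholesterol, stood at −0.74 on the log2 scale without passing (adjusted p = 0.0548 by edgeR). In the retinoic acid list, 12 genes were tested and Aldh1a1, which makes retinoic acid, was lower (−0.85 ± 0.21, adjusted p = 0.0451 by edgeR). Rarg, a retinoic acid receptor, passed the p but not the fold threshold (0.37, adjusted p = 0.0419 by edgeR). In the list of the cortical complex of Phldb2, which holds its paralogues Phldb1 and Phldb3, 8 genes were tested and none was called by edgeR or DESeq2. Phldb1 was the only 1 of them lower at an unadjusted p under 0.05. The log2 fold changes of Phldb1 and Phldb3 were −0.60 and 0.26.

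Outside the named families, the 5 genes whose levels over the 6 mouse libraries were most like the summed level of the 9 were found by Pearson's r on log2(CPM + 0.1), among 13780 genes with at least 30 counts in all. They were Ndnl2 (r = 0.998), Arfrp1 (0.996), Akr1c13 (0.994), Ric3 (0.993) and Tbcb (0.992). None of them was silent in WT. Ric3, a chaperone of acetylcholine receptors, came nearest with 63, 46 and 48 counts in WT and 179, 175 and 206 in KO replicates 1, 2 and 3. These 6 points are 2 groups of 3 libraries, so that any gene that separates the genotypes evenly scores high.

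The human counterparts gave a readout that had no part in choosing the genes. Of 7 counterparts named, PHLDB2 and SCN2A were among the 18304 human genes listed. TCP11X2, DNAH5, TTLL2, CH25H and CYP26A1 were not listed and gave no readout. Each human gene listed had at least 2 counts over all libraries. Olfr1342 and Ssxb10 have no single counterpart. PHLDB2 was not silent in NK92MI cells. It was counted at 1124, 954 and 964 with DMSO and at 1219, 1370 and 1219 with BIX-01294, and the groups did not overlap. Its level was 59.3 ± 5.23 CPM with DMSO and 75.5 ± 4.43 CPM with BIX-01294 (SD, n = 3 each), with a log2 fold change of 0.35 ± 0.08 and an adjusted p of 0.00389 by edgeR. The increase of 1.27-fold was beyond the spread between libraries but below the fold threshold, so that PHLDB2 was not called, where 7.57% of all 12727 genes tested were called higher and 7.34% lower. Those shares need both thresholds. On p alone, 2910 of the 12727 genes were higher and 2951 lower at an unadjusted p under 0.05 by edgeR, so such an increase was common.

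SCN2A was counted at 10, 7 and 6 with DMSO and at 4, 19 and 11 with BIX-01294. Its groups overlapped, and its counts were too low for the test. At 0.448 ± 0.118 CPM with DMSO and 0.669 ± 0.436 CPM with BIX-01294 (SD, n = 3 each), a difference was not detectable at this depth.

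**Figure D5:**
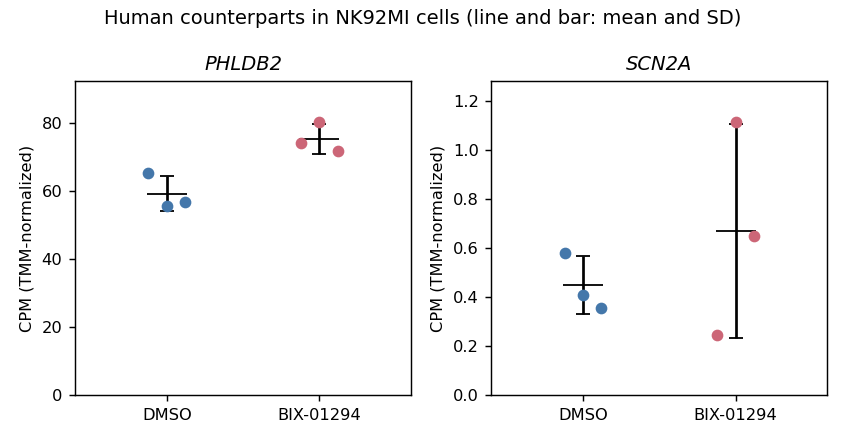
Levels of PHLDB2 and SCN2A in NK92MI cells (vertical axes, TMM-normalized CPM from 0) with DMSO and with BIX-01294, with points for libraries, a line for the mean and bars for the SD. The 3 PHLDB2 values with BIX-01294 lie above the 3 with DMSO, and the SCN2A groups overlap.

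Relatives of the 9 genes were tested in NK92MI cells in the same way. Over all lists 67 human genes were tested, of which 8 were higher and 6 lower by edgeR, beside 7.57% and 7.34% of all genes. TKTL1, an X-linked transketolase-like gene of the germ-line list, showed the largest change among those called. It was nearly absent with DMSO at 3, 3 and 7 counts and reached 22, 26 and 29 with BIX-01294 (log2 fold change 2.55 ± 0.43, adjusted p = 0.000414 by edgeR). TEX13D of the same list was higher as well (1.09 ± 0.30, adjusted p = 0.0106 by edgeR). In mouse NK cells Tktl1 held 6, 14 and 12 counts in WT and 16, 2 and 4 in KO, and it was not called.

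Of the sodium channel subunits, SCN4B was higher with BIX-01294 (23, 24 and 19 counts with DMSO and 41, 57 and 33 with BIX-01294, log2 fold change 1.01, adjusted p = 0.0134 by edgeR), a call lost without CON-3 or without BIX-01294 replicate 2 (adjusted p = 0.0571 and 0.0621 by edgeR). CON-1 to CON-3 are the control columns. The retinoic acid receptor gene RARG was higher (1.21 ± 0.24, adjusted p = 0.00161 by edgeR), and RXRA, which encodes the partner of such receptors, was lower (−0.70, adjusted p = 0.00210 by edgeR). In the sterol list INSIG1 (0.60), INSIG2 (0.50) and HSD3B7 (0.71) were higher and NR1H3 (−0.74) and MYLIP (−0.55) were lower in log2 fold change, with adjusted p between 5.94e-05 and 0.0356 by edgeR. HSD3B7 lost its call in 6 of 9 refits, which were DESeq2 and those without CON-1, CON-2, CON-3, BIX-01294 replicate 1 or BIX-01294 replicate 3 (adjusted p = 0.0532 to 0.128). INSIG2 fell below the fold threshold without CON-2 (0.44) or BIX-01294 replicate 2 (0.49), and MYLIP without BIX-01294 replicate 1 (−0.46). Of the complex around PHLDB2, its paralogue PHLDB3 was higher (0.62, adjusted p = 0.0245 by edgeR) and KANK1 lower (−0.75, adjusted p = 0.00164 by edgeR). PHLDB3 was not called by DESeq2 or without CON-1, CON-2 or BIX-01294 replicate 3 (adjusted p = 0.0541 to 0.103). TTLL12 (−0.85) and ZMYND10 (−0.56), an assembly factor of ciliary dynein, were lower, with adjusted p of 6.08e-06 and 0.0199 by edgeR. ZMYND10 was not called by DESeq2 or without CON-2, CON-3 or BIX-01294 replicate 1 (adjusted p = 0.0557 to 0.0723). Mice and the cell line differ in species, in how Ehmt2 was targeted and in the starting level of these genes, and the effects were not tested against each other.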

How the data were processed

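NK cells sorted from mouse spleen (3 WT and 3 KO libraries) and NK92MI cells (3 BIX-01294 and 3 DMSO libraries) were profiled by RNA-seq of polyA RNA. Per the submitters' processing notes, reads were trimmed with fastp 0.23.4, aligned with STAR 2.7.11b to GRCm38/mm10 or GRCh38/hg38 (2 mismatches allowed, per the methods) and counted per gene with HTSeq 2.0.3. Per gene symbol, the authors deposited raw counts that had not been normalized. The annotation release and the strand setting are not given in the sources used here. Gene positions and sequences were taken from GENCODE M21 (GRCm38), in which 21343 of 21975 mouse symbols were found, and this is not shown to be the authors' release. Stretches of 100 bases of the longest coding transcript of each gene were searched in all other transcripts, and coding sequences were compared with blastn 2.17.0.

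The members and all gene lists were chosen with earlier results of these data known. Counts were normalized by TMM, filtered with filterByExpr and tested with edgeR 4.0.16 (R 4.3.3, quasi-likelihood test), separately for mouse (13189 genes) and human (12727 genes). Calls needed an adjusted p (Benjamini-Hochberg) below 0.05 together with a log2 fold change above 0.5 in size. CPM are TMM-normalized counts scaled to library size. On simulated counts with 200 changed genes among the 13189 mouse genes, the test recovered 96% of them with 12 false calls. The changed genes were drawn from the better counted genes and all changed by the same size, well above the fold threshold. The share recovered therefore does not hold for genes of low count or of smaller change. Even counts prevailed among low mouse counts, so the planned floor of 3 counts was raised to 6, and intervals of ratios were computed on counts divided by 2 and rounded up (exact binomial, 95%, counting error only). The SSX list was corrected after the files were read, since its pattern also took Ssx2ip. Named were the 9 genes, up to 5 called genes per list and direction, the nearest listed neighbours, the 5 largest genes of the count rule and of its mirror, the 5 genes most like the summed level, Ehmt2, and genes said to be singled out later. The human control columns carry no replicate numbers and were used as a group. The replicate numbers of the mouse libraries were not used to pair them in the main fit. Deviations of same-numbered libraries correlated at 0.28, 0.35 and −0.19, which with 3 libraries per group does not settle whether they were paired. Alternatives were DESeq2 1.42.0, its size factors in edgeR, no filter, an adjusted p of 0.01, the replicate block, other count cuts and each library left out in turn.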

Additional observations from a re-analysis of the deposited data

How the results depend on the processing

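Under 8 alternatives of scaling and of leaving out 1 library, the 72 differences in mean CPM of the 9 genes moved by less than 1 SD. With 3 libraries per group, leaving out 1 cannot move the mean of its group by 1 SD of that group. The small moves are therefore no sign of robustness, and that the groups do not overlap is fixed by the choice. The count rule took 17 genes, 3 with 0 counts over WT (Tcp11x2, Ssxb10 and Scn2a1), 15 with at most 3 counts over WT and at least 3 in each KO library, 9 with counts scaled to the smallest library (with 4 of the 9 genes left, Tcp11x2, Dnah5, Ttll2 and Ssxb10), and 19 to 25 with a library left out. Its mirror took 24 genes, 1 with 0 counts over KO, 32 with at most 3 over KO and at least 3 in each WT library, 28 with scaled counts, and 21 to 106 with a library left out, with 106 without WT replicate 2 and 42 without KO replicate 1.

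Calls of family and neighbour genes in mouse rested on the threshold. At an adjusted p under 0.01, 0 family genes and 0 neighbours were called in either direction. DESeq2 called 5 family genes higher and 7 lower and 2 neighbours higher and 5 lower, beside 570 higher and 1668 lower of all 16465 genes. With its size factors in edgeR 0 neighbours were higher, and without the low-count filter 2 were. The replicate block gave 8 family genes lower (2 higher and 4 lower without it) and moved no other count of family or neighbour genes by over 1.5 times, while Foxj1 lost its call (adjusted p = 0.0537 by edgeR). Over all genes, the block raised edgeR's calls from 372 to 573 higher and from 882 to 1572 lower. With each library left out, family genes called higher ranged from 0 to 6 and lower from 0 to 11, and neighbours from 0 to 2 and from 0 to 4. Without WT replicate 2 the counts were highest, and without KO replicate 2, KO replicate 3 or WT replicate 3 they were 0 for all 4. Without WT replicate 1, 0 family genes and 1 neighbour, which was lower, were called, and without KO replicate 1, 7 family genes were lower. For the 11 named mouse genes that were called, 50 of 110 refitted values kept direction but lost the call, and for the 14 human ones 19 of 126. PHLDB2 had a log2 fold change of 0.30 to 0.42 in all 9 refits (adjusted p 0.000799 to 0.0272), and no counterpart was called in any of 10 alternatives. SCN2A gave 0.00 to 0.97 in the 7 fits that included it (adjusted p 0.170 to 0.997). No paired analysis was possible for the human libraries because the control columns carry no replicate numbers. Depth limits the 8 lower genes most, with 10 to 80 counts per KO library.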
